A study of Mus musculus with 15 samples.

Results

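The mouse Hox genes were examined here as 4 clusters of 39 protein-coding genes, out of 22219 protein-coding gene symbols in the annotation used (GENCODE vM1, mouse build mm9). Membership was by name alone, as every symbol made of Hoxa, Hoxb, Hoxc or Hoxd and a number, and no binding value entered that rule. The rule was set with earlier results of these data known. The HoxA cluster holds 11 genes in 105.5 kb (chr6:52105366-52210874), the HoxB cluster 10 genes in 173.9 kb (chr11:96055630-96229570), the HoxC cluster 9 genes in 115.7 kb (chr15:102751534-102867274) and the HoxD cluster 9 genes in 96.8 kb (chr2:74506367-74603200).

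Hox genes encode homeodomain transcription factors that give cells their position along the head-to-tail axis and along the limb. Within a cluster the order of the genes follows the order of their use: genes at the low-numbered end act early and towards the head, genes at the high-numbered end late and towards the tail and the tip of the limb. Polycomb complexes keep unused Hox genes shut and trithorax complexes keep used ones open, and cultured fibroblasts are known to retain a set of active Hox genes that reflects the body site they came from.

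Chromatin immunoprecipitation with sequencing had been used to map where RNA polymerase II (RNAPII), Myc and the zinc finger protein Miz1 (gene Zbtb17) sat on the genome. All fibroblast samples came from 3T9-MycER, an immortal line made from E13.5 mouse embryos, with c-myc flox/flox alleles and a MycER transgene brought in by a pBabe bleomycin construct. MycER is Myc fused to a hormone-binding domain, and it is inactive until 4-hydroxytamoxifen (OHT) is given, here at 400 nM. Whether the floxed alleles were still intact is not stated in the labels, and the peak lists do not separate MycER from the cells' own Myc. RNAPII (antibody N20) and Myc (antibody N262) were each mapped before OHT (0 min), after 10, 20 and 30 min of it, and after 2 h and 4 h. Miz1 (a home-made antibody, 10E2) was profiled in the same line and in splenic B cells of wild-type C57BL/6 mice.

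Each group was a single library, so no difference below has a replicate check and no test across samples was possible. RNAPII libraries held 15276996 tags at 0 min, the lowest of the 6, to 36396286 at 20 min, the highest. Myc libraries held 28132063 to 33431447 tags, and Miz1 libraries 10164509 in fibroblasts and 24237295 in B cells. Each RNAPII library had both a narrow and a broad peak list, and in spite of their names the broad peaks were shorter, with a median of 823.5 bp at 0 min against 2616 bp. The fibroblast label was borne out by its markers: 12 of 15 carried RNAPII at the promoter before OHT, against 47.5% of all genes. Of these peaks the highest was at Col1a1, at 142.62-fold over the control. Thy1 and Postn had none at any time. Among markers of other cells an RNAPII promoter peak at 0 min was listed for 1 of 8 B cell genes (Ebf1), 1 of 5 neuron genes (Tubb3), 0 of 5 hepatocyte genes and 0 of 6 myeloid or T cell genes. Fold enrichment is the authors' own value for a peak against its local control, and it is used here to describe peaks within a list; values from lists of different times are given side by side only. A peak reports the average over all cells, so a site bound in few cells and a site bound weakly in all cells cannot be told apart.

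Myc binds DNA at the E-box CACGTG, a motif that reads the same on both strands. In HoxA 9 of 16 CACGTG sites lay under a Myc peak at some time, and 6 of those 9 were within 200 bp (a distance chosen after the values were seen) of a Hox transcription start site (TSS). Of these, 5 are shown because they lie at the promoters that the results turn on. Each is 30 bases of the + strand of mm9, with the E-box in capitals.
Hoxa3, chr6:52122718-52122747: cgcccccgcggtCACGTGacactccgccgc
Hoxa4, chr6:52141925-52141954: gcccccgcgcccCACGTGctgcgatccggc
Hoxa5, chr6:52154491-52154520: acgacttcgaatCACGTGcttttgttgtcc
Hoxa7, chr6:52167522-52167551: agctcgccgcggCACGTGaccgcccacatg
Hoxa9, chr6:52176241-52176270: ggccacgcgcgtCACGTGtccgcccggcag

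The other clusters carry the same 6 letters with no Myc peak over them. The site closest to a TSS in each is shown for contrast, again on the + strand of mm9. It lay 121 bp from the TSS in Hoxb3, 2 bp from it in Hoxc12 and 2 bp from it in Hoxd4.
Hoxb3, chr11:96189485-96189514: ccccctcctggtCACGTGattcattaaata
Hoxc12, chr15:102767174-102767203: ggcggtagcgccCACGTGagtagagcggcc
Hoxd4, chr2:74560021-74560050: gctatttataagCACGTGattccaataaac

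The strongest Miz1 peaks in HoxA sat on another kind of sequence, a long run of TC. Both stretches of 200 bases are centred on the summit, on the + strand of mm9, with every stretch of TCTCTCTC in capitals. The first is intronic, between the TSSs of Hoxa4 and Hoxa5, and the second lies in an intron of Hoxa6, 928 bp from its TSS.
Miz1 peak at 13.68-fold, chr6:52147924-52148123: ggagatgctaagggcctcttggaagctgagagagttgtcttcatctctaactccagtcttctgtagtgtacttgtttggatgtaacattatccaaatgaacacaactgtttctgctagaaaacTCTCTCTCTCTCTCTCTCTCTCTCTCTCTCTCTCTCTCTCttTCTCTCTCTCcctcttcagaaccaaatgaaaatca
Miz1 peak at 13.41-fold, chr6:52157693-52157892: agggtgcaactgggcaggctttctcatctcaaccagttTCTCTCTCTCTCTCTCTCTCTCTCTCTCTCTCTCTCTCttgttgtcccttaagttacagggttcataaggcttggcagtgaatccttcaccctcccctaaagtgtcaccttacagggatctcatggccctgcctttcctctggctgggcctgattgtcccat

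The 6 miRNA hairpins of the clusters are the last set, shown because most of them fall into families that cross the clusters. Mature sequences are RefSeq's (GRCm38.p6), with the seed, bases 2 to 8, in capitals.
miR-196a-5p (Mir196a-1 in HoxB and Mir196a-2 in HoxC): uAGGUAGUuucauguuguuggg
miR-196b-5p (Mir196b in HoxA): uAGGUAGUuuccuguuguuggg
miR-10a-5p (Mir10a in HoxB): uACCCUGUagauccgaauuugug
miR-10b-5p (Mir10b in HoxD): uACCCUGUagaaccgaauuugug
miR-615-3p (Mir615 in HoxC): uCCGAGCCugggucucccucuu

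The first question was which Hox genes carried RNAPII. A promoter peak is a listed peak that overlaps the 1000 bp on either side of a protein-coding TSS by at least 1 bp. An RNAPII promoter peak was listed for 8 of 11 HoxA genes in all 6 narrow and all 6 broad lists, among them Hoxa2, Hoxa3, Hoxa4, Hoxa5, Hoxa7, Hoxa9 and Hoxa10. Hoxa6, Hoxa11 and Hoxa13 had none, and neither had any of the 28 HoxB, HoxC and HoxD genes. The set of 8 genes did not differ between any of the 12 lists.

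The count was therefore 8 of 39 Hox genes at every time. In the narrow lists the share of all protein-coding genes was 47.5% at 0 min, 47.3% at 10 min, 48.4% at 20 min, 46.4% at 30 min, 46.3% at 2 h and 46.8% at 4 h. In the broad lists it was 44.4%, 44.9%, 46.8%, 43.3%, 43.8% and 43.8% at the same times. Peaks at all 6 times were listed for 43.5% of all genes in the narrow lists and 41.3% in the broad lists. Within HoxA the count was 8 of 11 genes, and in the other 3 clusters together 0 of 28.

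**Figure D1:**
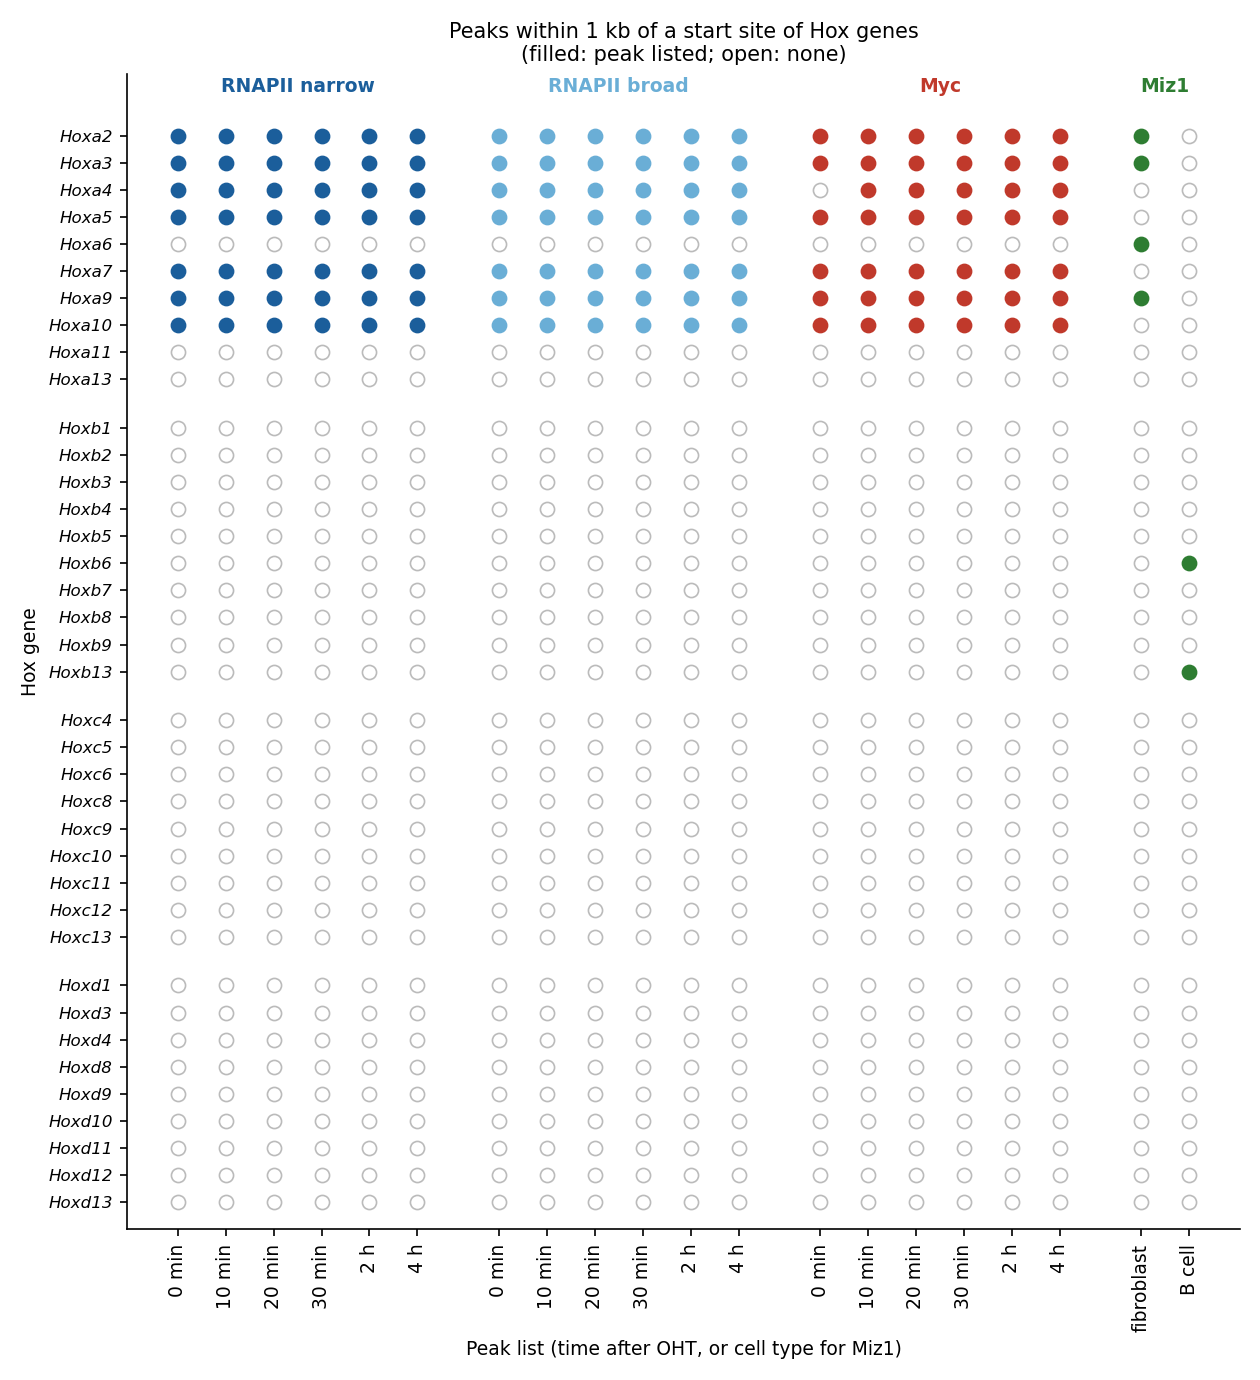
Promoter peaks of Hox genes (rows, by cluster) in the 20 peak lists (columns). A filled dot is a listed peak within 1 kb of a TSS and an open dot is none; every filled RNAPII and Myc dot belongs to a HoxA gene, and of the genes shown with RNAPII, Hoxa4 alone lacks Myc at 0 min.

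Neighbouring genes shared peaks, so the 8 genes are not 8 independent observations. At 0 min a narrow RNAPII peak of 28956 bp ran without a break over Hoxa2 and part of Hoxa3, and only 0.514% of the narrow peaks of that list were longer. At 2 h the peak at the same place was 31776 bp long. With the summit of a peak required inside the promoter window, 5 genes were listed at all 6 times in place of 8, without Hoxa2, Hoxa3 and Hoxa10. The broad lists split this block, although at 0 min a broad peak of 15906 bp still ran over Hoxa2 and part of Hoxa3. In the broad lists Hoxa3 had a summit within 80 bp of a TSS at every time. At 0 min and 4 h that TSS was an upstream one outside the block. Inside the block the broad summit nearest to a Hoxa3 TSS was 172 bp away at 0 min and 272 bp at 4 h.

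Fold enrichment differed between the genes within a list. Values of different times are set side by side without reading a change, since the list medians themselves ran from 7.61 to 12.49-fold. Hoxa7, which acts in the trunk, was listed at 45.52-fold at 0 min and 33.81-fold at 4 h, in a peak that also spans an upstream TSS of Hoxa3. Hoxa5, known for its role in lung and shoulder development, stood at 26.39-fold in the 0 min list and between 13.34 and 18.53-fold in the other 5. Hoxa9, a gene of the trunk and of blood stem cells, ranged from 13.5 to 24.88-fold over the 6 lists. Hoxa4, which helps to pattern the neck vertebrae, ranged from 12.42 to 22.04-fold. Hoxa10, a gene of the lumbar vertebrae and the uterus, had 7.41 to 11.98-fold in its strongest narrow peak, whose summit lay outside the promoter window in some lists, as at 2 h, when it was 1180 bp from the nearest TSS.

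The unbound high-numbered end formed a single stretch. No narrow RNAPII peak at any of the 6 times lay in the last 19.6 kb of the cluster (chr6:52191245-52210874), which hold the TSSs of Hoxa11 and Hoxa13, genes of the limb and the genital tract. It began at the edge of the most upstream Hoxa10 region (chr6:52188532-52191244), which was listed at 5 of 6 times and not at 2 h. Of the bound genes, Hoxa7 and Hoxa9 each also have an alternative TSS in a stretch without narrow RNAPII peaks. Hoxa6 was the exception inside the bound part. Its annotated protein-coding TSS lay in an unbound stretch of 4.9 kb (chr6:52155812-52160732), although RNAPII narrow peaks covered 15.6% of the gene's span at 0 min. That call depended on the TSS used. With the 5′ end of each gene in place of the TSSs of its protein-coding transcripts, Hoxa6 was listed and Hoxa9 was not. Hoxa10 then also dropped out of the set listed at all 6 times, which held 7 Hox genes.

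Along the cluster 49.7 kb, or 47.1% of HoxA, lay under a narrow RNAPII peak at all 6 times and 39.4 kb, or 37.3%, at none. The share covered was 58.0% at 0 min, 55.0% at 10 min, 53.9% at 20 min, 51.9% at 30 min, 59.1% at 2 h and 53.7% at 4 h. Over the whole genome it was 2.8% to 4.42%. The broad lists covered 32.6% of HoxA at 0 min and 18.2% to 27.7% at the later times, against 0.772% to 1.46% of the genome.

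**Figure D2:**
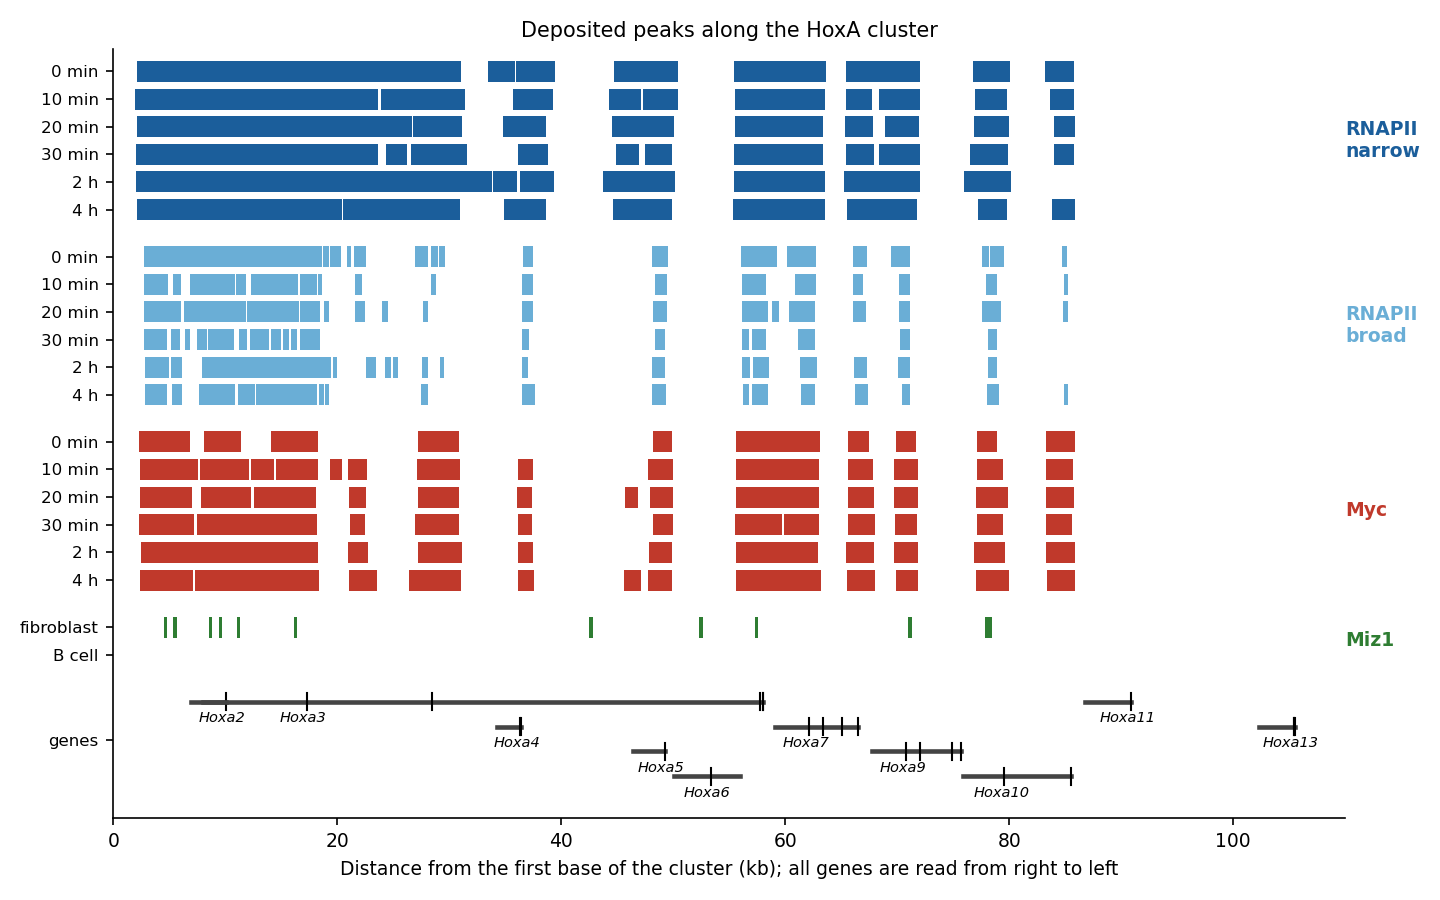
Peaks along HoxA, with distance from the first base of the cluster in kb on the x axis and 1 row per peak list; below them are HoxA genes with their annotated spans as bars and protein-coding TSSs as ticks. Most RNAPII and Myc blocks recur at the same places, some smaller ones are missing at some times, and none lies over Hoxa11 or Hoxa13.

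The other 3 clusters were empty in a strict sense. None of the 18 RNAPII and Myc lists had a peak anywhere between the first and the last gene of HoxB, HoxC or HoxD. The stretch free of all 18 lists, flanks included, was 335.3 kb around HoxB, 310.9 kb around HoxC and 244.3 kb around HoxD. A site without a peak may still hold signal below the authors' cutoff, which for these lists was p = 1e-08.

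The genes around the clusters were bound in part. Next to HoxD, Mtx2, a mitochondrial gene 60660 bp away, was listed at 28.83-fold for RNAPII at its promoter before OHT. Evx2, a homeobox gene 8449 bp from HoxD on the other side, and Evx1, a homeobox gene 52618 bp from HoxA, had none at any time. Skap2, a signalling adaptor 142818 bp from HoxA, stood at 25.62-fold. Next to HoxB, Ttll6 and Skap1 had no RNAPII or Myc promoter peak, and next to HoxC, Gm17649 and the DNA repair gene Smug1 had none either. Farther out, and named after their values were seen, Atp5g1, an ATP synthase gene 118646 bp from HoxB, was listed at 39.25-fold, and Cbx5 and Hnrnpa1 beyond HoxC shared a peak of 88.4-fold.

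**Figure D3:**
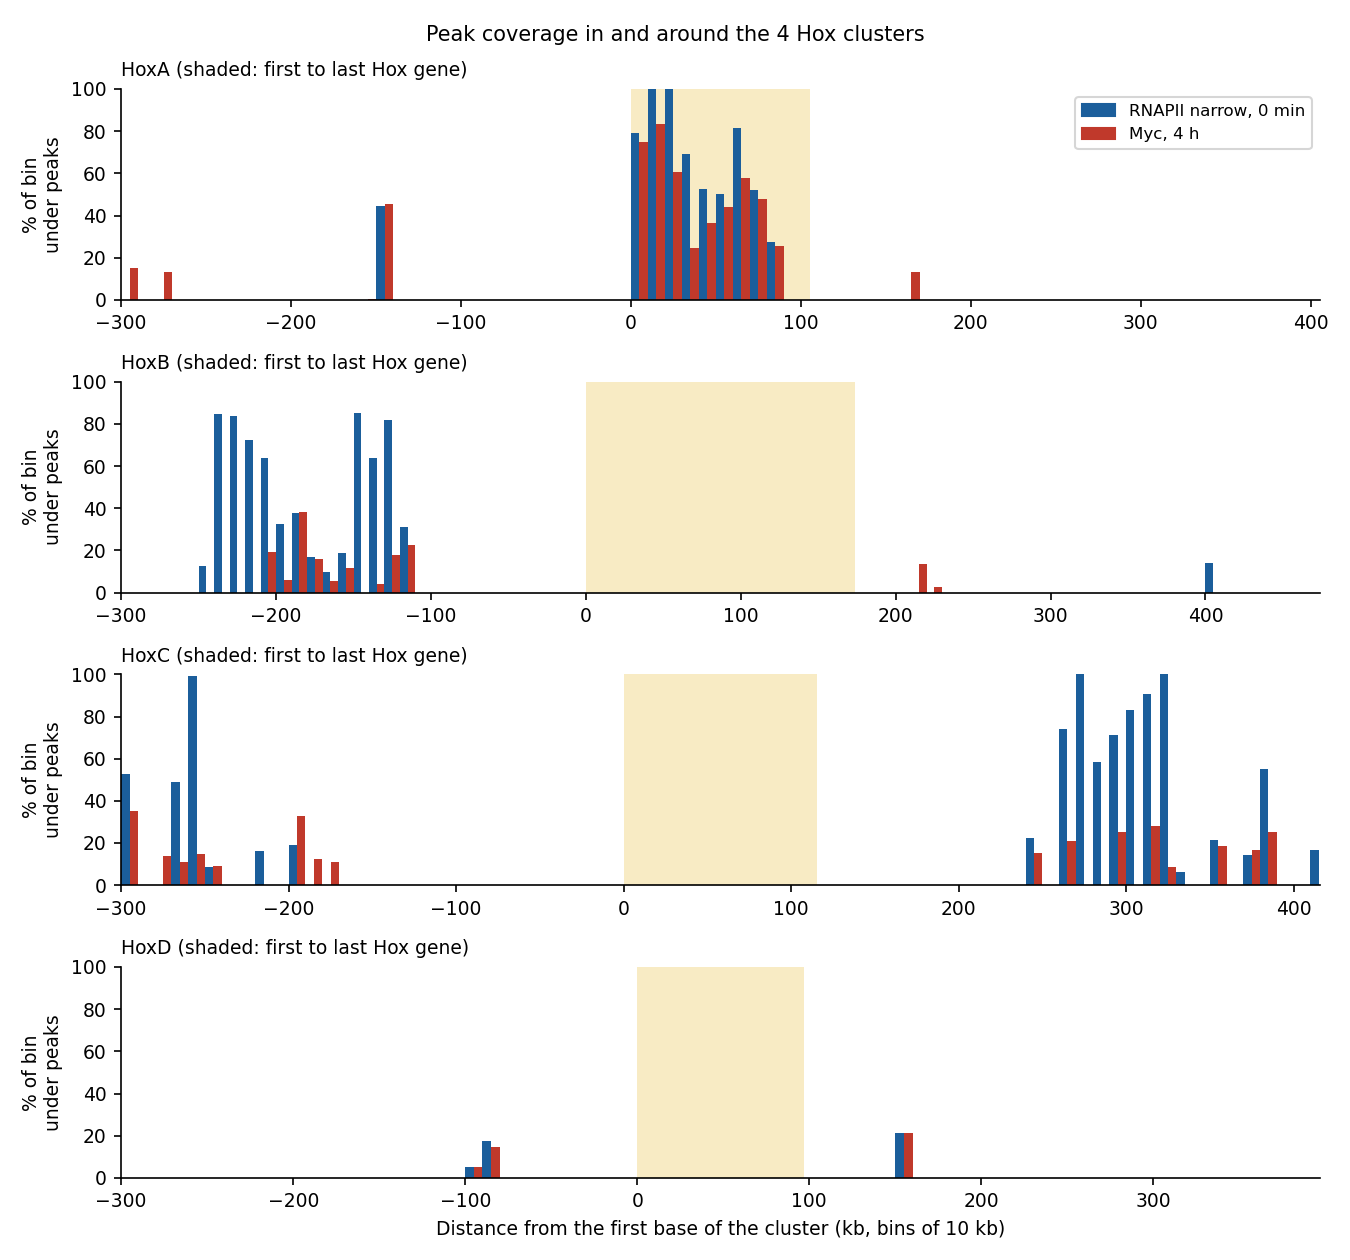
Percent of each 10 kb bin under narrow RNAPII peaks at 0 min (blue) and Myc peaks at 4 h (red), in the 4 clusters (shaded) and 300 kb on either side; the x axis is distance from the first base of the cluster in kb. Bins inside HoxA hold peaks except at its high-numbered end, and all bins inside HoxB, HoxC and HoxD are at 0.

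The second question was where Myc sat before and after OHT. At 0 min Myc had promoter peaks at 7 Hox genes, among them Hoxa2, Hoxa3, Hoxa5, Hoxa7, Hoxa9 and Hoxa10, against 44.7% of all genes. At each later time it had 8 of 39, against 46.8% of all genes at 10 min, 47.9% at 20 min, 46.6% at 30 min, 48.9% at 2 h and 46.7% at 4 h. The same 7 genes were listed at all 6 times (43.3% of all genes). No Myc promoter peak was listed in HoxB, HoxC or HoxD at any time. With RNAPII and Myc together, 31 of 39 Hox genes had no promoter peak in any of the 18 lists, against 47.1% of all genes.

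Hoxa4 was the Hox gene whose Myc call differed between times. It had no Myc peak at 0 min and a peak at each of the 5 later times, with folds of 10.72 (10 min), 11.84 (20 min), 9.83 (30 min), 13.99 (2 h) and 11.98 (4 h). The summit lay 298 to 340 bp from its TSS, and the E-box shown above for Hoxa4 is inside the peak at all 5 times. Genes with this pattern made up 1.62% of all genes (361). A protein-coding gene inside HoxA that is not a Hox gene, 5730596B20Rik, had the same Myc pattern at its TSS. The 0 min list was the shortest of the 6 Myc lists, with 19995 peaks, although its library was the deepest of the 6, with 33431447 tags. With 19995 peaks taken from each list, strongest by p, Hoxa4 was still listed at 4 h. The 0 min list loses no peak at this number, so the 0 min call could not change. At 4 h the fold at Hoxa4 was below the median of the list, 12.39.

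The other bound HoxA genes had a Myc promoter peak before OHT. A region inside the span of Hoxa3 (chr6:52126338-52128938), at no Hox promoter, had no Myc peak at 0 min and 1 at each of the 5 later times. The medians of the Myc lists ran from 9.83 to 13.09-fold, so the folds of different times below are not read as change. At Hoxa3, which has 5 TSSs, the strongest peak stood at 19.38-fold before OHT with its summit 123 bp from a TSS, and at 26.97-fold after 4 h with its summit 132 bp from that TSS. A second Hoxa3 TSS had a peak of 13.46-fold, 35 bp away, and 17.9-fold, 13 bp away, in the same lists. At Hoxa7 the values were 19.28 and 23.88-fold. Hoxa9 was listed at 9.13-fold in the 0 min list and at 12.98 to 19.76-fold in the other 5.

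Myc peaks covered 31.3% of HoxA at 0 min, 39.8% at 10 min, 39.4% at 20 min, 38.2% at 30 min, 40.1% at 2 h and 43.1% at 4 h. The genome-wide share was 1.46% to 2.0%. All 6 lists shared 31.7 kb of HoxA, and 57.6 kb were under no Myc peak at any time, including the last 19.6 kb with Hoxa11 and Hoxa13.

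Myc peaks in HoxA lay mostly inside RNAPII peaks, with 93.4% to 99.8% of their length covered at the same time. At 0 min 10 of 10 Myc summits fell within a narrow RNAPII peak of the same time, against 58.5% of all Myc summits. At 4 h it was 12 of 12, against 48.2%. Between these times 14 of 14, 14 of 14, 11 of 12 and 9 of 10 summits did so, against 52.4%, 53.9%, 52.8% and 44.2% of all Myc summits. Narrow RNAPII peaks covered 51.9% to 59.1% of HoxA, so much of the cluster met this condition.

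Tag counts were compared over regions as well. Peaks of the 6 lists that overlapped were joined into regions, separately for RNAPII and Myc, and the authors' tag counts in each region were divided by the library total (tags per 1e6). Such a value is a sum over peaks called separately at each time, so tags outside the peaks of that time are not in it. RNAPII had 5 regions in HoxA that were listed at all 6 times. The largest, 37.5 kb with the promoters of Hoxa2, Hoxa3 and Hoxa4 in it, held 182 tags per 1e6 before OHT, then 117, 107, 113, 138 and 129 in time order. The called peaks in it were 34.8 kb long at 0 min and 32.8, 32.8, 31.1, 37.0 and 32.4 kb later. The region of Hoxa5 held 18.0, 12.4, 10.8, 10.4, 14.2 and 12.9, over 5.7, 6.0, 5.6, 4.5, 6.4 and 5.3 kb of called peaks. The region over Hoxa7 and an upstream TSS of Hoxa3 held 50.8 at 0 min and 32.5 to 37.9 later. In the Hoxa9 region the values were 22.3 at 0 min and 12.7 to 19.4 later, and in the lower Hoxa10 region 9.49, 6.1, 6.51, 7.07, 7.1 and 5.78. In all 5 regions the 0 min value was the highest of the 6.

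All 5 regions were lower than at 0 min at all 5 later times, a pattern shared by 29.5% of the 10913 regions of the genome listed at all 6 times. Their median ratio to 0 min was 0.643 at 10 min, 0.598 at 20 min, 0.721 at 30 min, 0.758 at 2 h and 0.707 at 4 h. Over all regions the medians were 1.01, 1.03, 1.01, 0.871 and 0.939. Values more than 1.5-fold lower were found in 3, 3, 2, 0 and 1 of the 5 regions, against 5.46%, 6.91%, 9.73%, 18.0% and 15.1% of all regions. Scaled to the tags in all peaks of each list, all 5 regions were again lower at all 5 times, against 34.8% of all regions. On this scale 5, 5, 3, 0 and 1 were more than 1.5-fold lower, against 8.5%, 15.5%, 15.3%, 12.4% and 13.2% of all regions. The called length in the HoxA regions had median ratios to 0 min of 0.943, 0.957, 0.938, 1.06 and 0.931, against 1.16, 1.18, 1.05, 1.1 and 0.992 for all regions. Per kb of called peak the tag ratios had medians of 0.678, 0.671, 0.741, 0.714 and 0.776 in HoxA and 0.852, 0.828, 0.952, 0.791 and 0.947 over all regions. On that scale all 5 HoxA regions were again below 1 at all 5 times, and so were the medians of all regions. Only 2, 2, 0, 1 and 0 HoxA regions were more than 1.5-fold lower, against 9.98%, 15.0%, 5.02%, 21.1% and 4.17% of all regions. All 5 comparisons share the 0 min library, which was also the shallowest, and without a replicate of it the part of that library in the difference was not tested.

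Sums over the cluster were also highest at 0 min. Narrow peaks in HoxA held 289 tags per 1e6 at 0 min over 61.2 kb, 186 at 10 min over 58.0 kb, 173 at 20 min over 56.8 kb, 187 at 30 min over 54.8 kb, 215 at 2 h over 62.3 kb and 205 at 4 h over 56.7 kb. As a share of the tags in all narrow peaks, HoxA held 0.108% at 0 min (Wilson 95% interval 0.105 to 0.111), 0.0562% at 20 min (0.0548 to 0.0576) and 0.0787% at 4 h (0.0761 to 0.0814). These intervals cover counting error only.

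**Figure D4:**
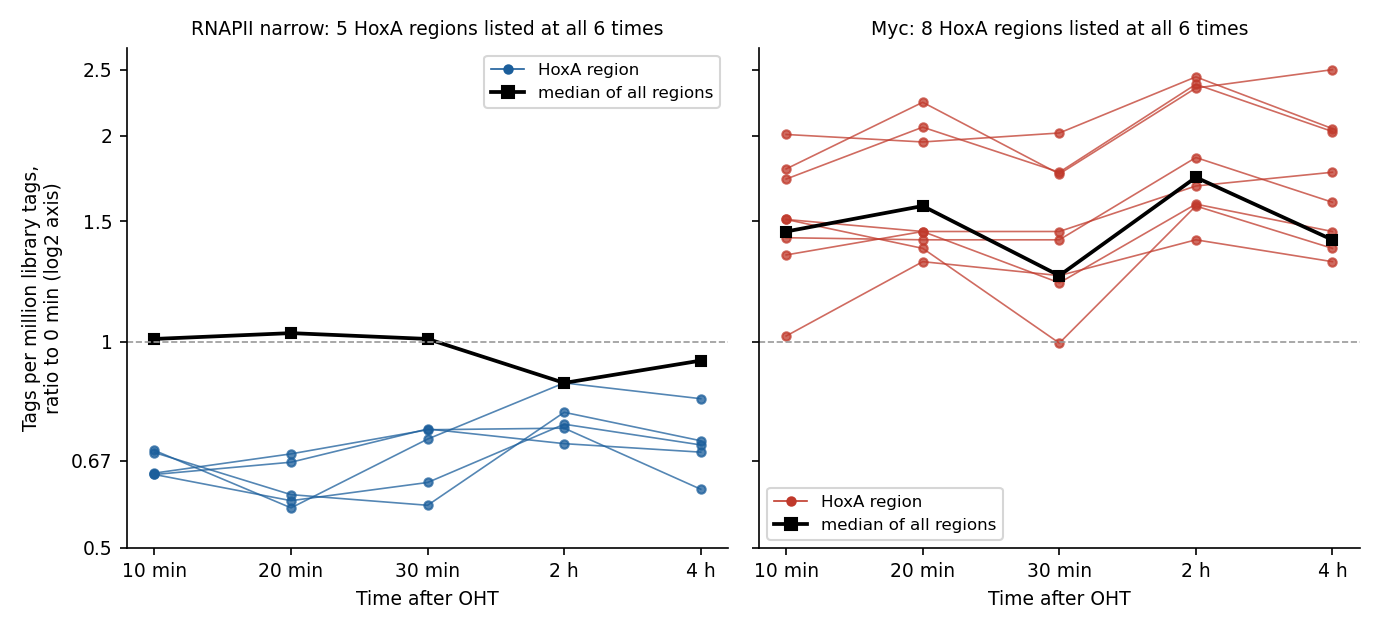
Tags per 1e6 library tags relative to 0 min (y axis, log2 scale) at the 5 later times (x axis) for HoxA regions listed at all 6 times (thin lines) and the median of all such regions (black squares), for narrow RNAPII peaks (left, 5 HoxA regions) and Myc peaks (right, 8). HoxA RNAPII regions lie below 1 at all times, and HoxA Myc regions lie on both sides of the median of all regions.

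The Myc regions of HoxA had ratios near those of all Myc regions. The 8 Myc regions of HoxA listed at all 6 times had median ratios to 0 min of 1.51, 1.45, 1.43, 1.78 and 1.69, beside 1.45, 1.58, 1.25, 1.74 and 1.41 for all 17674 such regions. Values more than 1.5-fold higher were found in 5, 3, 3, 7 and 5 of 8, against 44.1%, 58.9%, 23.4%, 73.9% and 39.3% of all regions. Scaled to the tags in all Myc peaks the direction did not hold at every time. On this scale 0, 0, 0, 0 and 1 of 8 were more than 1.5-fold higher, against 2.19%, 2.63%, 4.07%, 2.46% and 3.76% of all regions. The HoxA medians were then 0.952, 0.823, 1.04, 0.897 and 1.09, beside 0.916, 0.896, 0.916, 0.88 and 0.91 for all regions. The called length in HoxA Myc regions had median ratios of 1.22, 1.2, 1.11, 1.23 and 1.24, against 1.06, 1.06, 0.98, 1.07 and 1.04 for all regions. Per kb of called peak the tag ratios had medians of 1.38, 1.43, 1.35, 1.54 and 1.43 in HoxA and 1.35, 1.45, 1.26, 1.57 and 1.33 over all regions. Per kb, 1, 2, 2, 4 and 3 of 8 were more than 1.5-fold higher, against 27.1%, 42.2%, 19.4%, 59.5% and 26.5% of all regions. The share of library tags inside peaks was itself 9.26% at 0 min and 12.7% to 18.3% later. The region over the most upstream Hoxa10 TSS held 3.59 tags per 1e6 at 0 min and 4.72 at 4 h, a ratio of 1.31, over 2.6 kb of called peaks at both. The next region towards Hoxa9 held 2.78 and 6.96 at these times, a ratio of 2.5, over 1.8 and 3.0 kb of called peaks.

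The third question was how Miz1 lay on the clusters. In fibroblasts 4 Hox genes had a Miz1 promoter peak, namely Hoxa2, Hoxa3, Hoxa6 and Hoxa9, against 8.25% of all genes. In B cells 2 had one, namely Hoxb6 and Hoxb13, against 5.48%. No Hox gene was in both, against 2.43% of all genes, but the lists were called at p cutoffs of 1e-02 in fibroblasts and 1e-05 in B cells, so they cannot be compared in number. With peaks above the median fold of their list, 2 Hox genes were left in fibroblasts, Hoxa6 and Hoxa9, and 1 in B cells, Hoxb6.

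HoxA held 11 of the 12 fibroblast Miz1 peaks found in the 4 clusters, and the last was a 5.21-fold peak over a UTR of Hoxc9. Of the 12 peaks, 7 had q under 0.05, against 64.5% of the list. The 3 strongest were the pair on TC runs at 13.68 and 13.41-fold and a peak of 11.17-fold 346 bp from a Hoxa9 TSS. The other 8 in HoxA had 4.67 to 5.96-fold, at or below the median of the list, 5.96.

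The pair on TC runs stood apart from RNAPII and Myc. Neither overlapped an RNAPII peak at 0 min or a Myc peak at 0 min or 4 h, whereas the other 9 Miz1 peaks in HoxA overlapped all of them. Of all fibroblast Miz1 peaks 35.5% overlapped a narrow RNAPII peak at 0 min. GAGAGAGA or TCTCTCTC, searched on the + strand as both orientations of 1 motif, lay within 100 bp of the summit in 14.4% of fibroblast and 24.1% of B cell Miz1 peaks. Peaks with it had a median of 7.38-fold in fibroblasts, against 5.96 for those without, and 29.7% of them lay under RNAPII, against 36.5%. In HoxA 3 of 11 peaks had it, the pair shown and a 5.0-fold peak in an intron of Hoxa2. The Hoxb6 peak in B cells, at 17.83-fold and 149 bp from the TSS, also held GAGAGAGA. Reads on such simple repeats are harder to place, and the part of alignment in these peaks was not tested.

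E-boxes were about as frequent in HoxA as in the unbound clusters. CACGTG occurred 16 times in HoxA, 24 in HoxB, 14 in HoxC and 17 in HoxD, or 1.52, 1.38, 1.21 and 1.76 times per 10 kb. Myc peaks covered 9 of the 16 sites in HoxA, 7 of them at all 6 times, and none of the sites in the other clusters. Within 1 kb of a TSS, CACGTG was found for 33.8% of all genes. Within 200 bp it was found for 6 of 11 HoxA, 1 of 10 HoxB, 5 of 9 HoxC and 3 of 9 HoxD genes, and for 12.1% of all genes. All 6 HoxA genes had Myc at 4 h, the 9 others had not, and among all genes with such an E-box 64.9% had a Myc promoter peak at 4 h.

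A minority of the Myc summits in HoxA lay on an E-box. CACGTG was within 100 bp of 3 of 10 Myc summits at 0 min, against 15.8% of all Myc summits, and of 3 of 12 at 4 h, against 14.2%. The sites at Hoxa3, Hoxa5 and Hoxa7 were 50, 47 and 12 bp from the nearest summit at 4 h. Those at Hoxa4 and Hoxa9 were 113 and 145 bp away.

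Bound and unbound Hox promoters had overlapping CpG content. The observed to expected CpG ratio within 1 kb of the TSSs exceeded 0.6 for 15 Hox genes. Of these 15, 12 had no RNAPII promoter peak at 0 min, whereas 18.7% of all 5924 genes above 0.6 had none. They included Hoxd8 at 0.894, Hoxa13 at 0.856 and Hoxd13 at 0.84. Among the bound genes the ratio ran from 0.376 at Hoxa3 to 0.886 at Hoxa5.

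**Figure D5:**
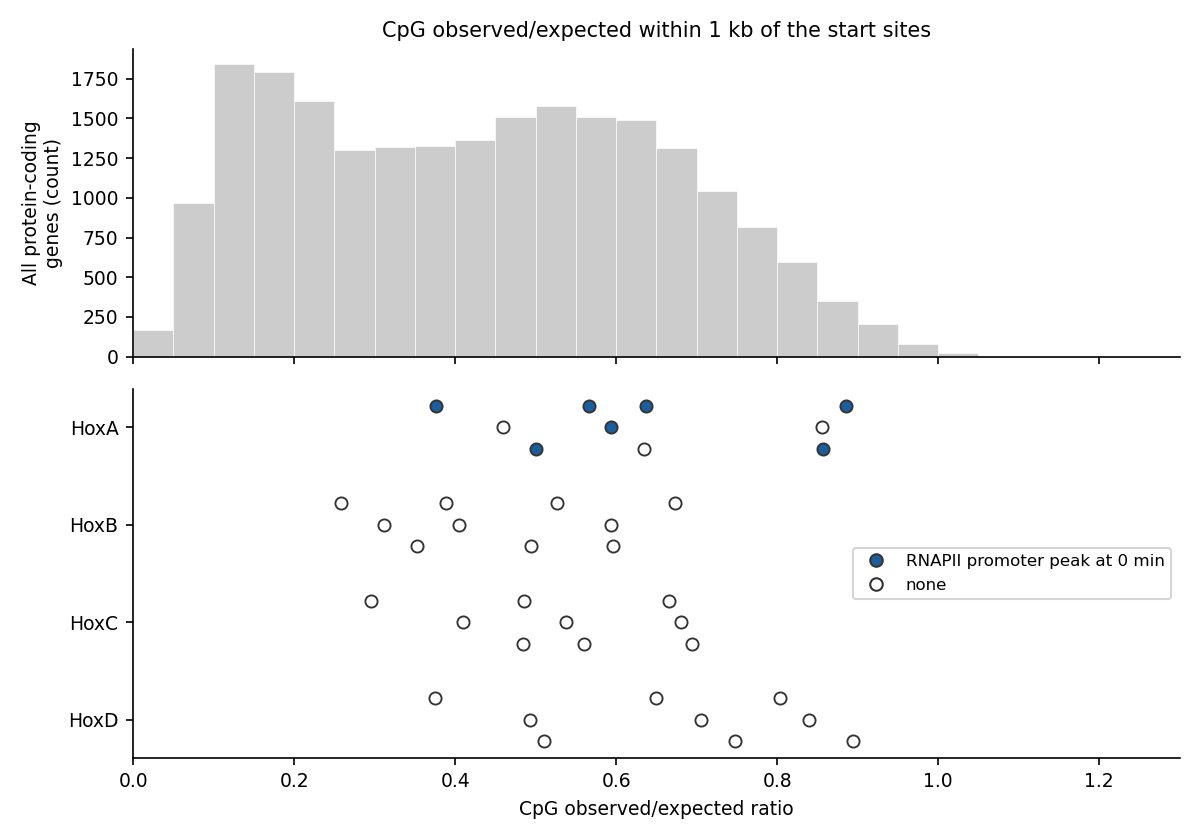
Observed to expected CpG ratio within 1 kb of the TSSs (x axis) for all protein-coding genes (top, counts) and for Hox genes by cluster (bottom; filled, RNAPII narrow promoter peak at 0 min; open, none; vertical position within a cluster only spreads the points). Open points reach as far right as filled ones.

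Non-coding genes inside HoxA mostly followed the block they lie in. RP23-329P9.11 and the pseudogene 9930038K12Rik lie in a stretch without narrow RNAPII peaks (chr6:52177410-52181358). Both had a narrow RNAPII peak within 1 kb of the TSS at 2 h and at no other time. Hotairm1 (Gm15051 in the annotation), a non-coding RNA known from blood cells, had RNAPII and Myc at a TSS in all 18 lists. So had Hoxaas2 (5730446D14Rik), whose span was wholly covered by narrow RNAPII peaks at all 6 times. Myc peaks covered 32.5% of it before OHT and 92.3% to 100.0% later. Hoxaas3 (2700086A05Rik) had RNAPII at a TSS in all 6 narrow lists and Myc at 10 min, 20 min and 4 h. Hoxa11os, antisense to Hoxa11, and Hottip, which lies beyond Hoxa13 and is known to act on the high-numbered HoxA genes, had no peak at any time. In the other clusters no annotated non-coding gene between the Hox genes had an RNAPII or Myc peak at its TSS.

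The miRNA hairpins were unbound in every list, Mir196b included, which sits in HoxA in a stretch of 3.9 kb without narrow RNAPII peaks. The nearest narrow RNAPII peak was 2.0 kb from it at 0 min and 2.4 kb at 4 h. At 2 h a narrow peak began nearer, at chr6:52181359. The Mir196b hairpin lies within the spans of RP23-329P9.11 and 9930038K12Rik. For Mir10b in HoxD the nearest narrow RNAPII peak was 98.8 kb away at 0 min, and for Mir10a in HoxB 239.7 kb. The family members differ at position 12 from the 5′ end, A12C from miR-196a-5p to miR-196b-5p and U12A from miR-10a-5p to miR-10b-5p, and each pair shares its seed. The miR-196 hairpins lie in HoxA, HoxB and HoxC, and the miR-10 hairpins in HoxB and HoxD, which had no RNAPII or Myc peak. The start of a longer primary transcript is not marked by these hairpins.

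Genes that work with Hox proteins were examined at 0 min, when RNAPII lay at the promoter of 47.5% of all genes. It did so at 6 of 9 Hox cofactor genes, with Meis1 at 53.68-fold and Meis2 at 43.24-fold. Both encode homeodomain partners that bind DNA together with Hox proteins. Pbx4, Meis3 and Pknox2 had none. Polycomb genes had it in 25 of 26 cases, among them Mtf2 at 85.28-fold and Ring1 at 70.27-fold, and Eed, a core subunit of PRC2, stood at 64.11-fold. Cbx7 was the exception. Of 14 trithorax and boundary genes 12 were listed, the highest being Mll1, a methyltransferase that maintains Hox expression, at 55.07-fold. Ash1l and Rad21 were not.

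Homeobox genes outside the Hox clusters were intermediate. Of 71 such genes RNAPII lay at 22 promoters before OHT, and at 21 in all 6 narrow lists. The highest were Dlx1 at 57.65-fold, a gene of forebrain and jaw, Hhex at 45.16-fold and Irx2 at 43.8-fold. That is 22 of 71 beside 8 of 39 for the Hox genes and 47.5% for all genes.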

How the data were processed

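The data are ChIP-seq peak lists, 20 in all, from 14 of 15 libraries; the input library has no list used here. Reads were aligned to mm9 with BWA 0.6.2-r126, and MACS2 2.0.9 is also named, per the submitters' processing notes. Every library was called separately, with a control and without pooling, per the file headers. Narrow RNAPII and Myc lists came from MACS 1.4.2 and broad RNAPII and Miz1 lists from MACS 2.0.9, per the file headers. The p cutoff was 1e-08 for RNAPII and Myc, 1e-02 for Miz1 in fibroblasts and 1e-05 for Miz1 in B cells, per the file headers.

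Deposited values were the raw tag count of a peak, a score made from the log10 of p and a false discovery rate in percent (MACS 1.4.2). The MACS 2.0.9 lists give the deposited pileup signal, −log10 p and −log10 q. Both give the fold enrichment, which the authors' caller computed against the control. These values were used within a list, or set side by side between lists, except that tag counts were scaled to library tags.

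Overlaps of at least 1 bp with 1000 bp on either side of protein-coding TSSs (GENCODE vM1, mm9) were counted with Python 3.11.15, pandas 2.3.3 and numpy 2.4.6, and plotted with matplotlib 3.10.9. The overlap and coverage code was tested on simulated data. Wilson 95% intervals (scipy 1.17.1) cover counting error only. With 1 library per group no test was run. Sequences were read from the mm9 genome and, for miRNAs, RefSeq (GRCm38.p6).

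Members and gene lists were chosen with earlier results of these data known. Named genes are the Hox genes, the nearest protein-coding neighbours, the other annotated genes of the clusters and, from each list, up to 4 members with the highest RNAPII fold at 0 min and those without a peak. Alternatives were other window widths, the 5′ end alone, a longer overlap, summits, peaks above the median fold, equal list lengths, broad lists and wider clusters. The scalings to tags in all peaks and to kb of called peak were chosen after seeing the data. Some items are not reported here by name, in the text or the figures; they stay in the counts.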

Additional observations from a re-analysis of the deposited data

How the results depend on the processing

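Of the 58 other settings listed at the outset, 52 left the count or length within 1.5 times of its value and 6 did not. In the 38 alternatives for RNAPII or Myc promoters, 0 found a gene outside HoxA. With the summit required in the window, RNAPII at all 6 times held 5 Hox genes in place of 8. Miz1 in fibroblasts fell from 4 Hox genes to 2 with the 5′ end of the gene alone, and to 2 with peaks above the median fold, where Miz1 in B cells fell from 2 to 1. Broad lists covered 34.4 kb in place of 61.2 kb at 0 min and 23.4 kb in place of 56.7 kb at 4 h; broad peaks are shorter. Scaled to tags in all peaks, the HoxA RNAPII regions past 1.5-fold lower went from 3 to 5 at 10 min and from 3 to 5 at 20 min; per kb of called peak it was 0 in place of 2 at 30 min, 1 in place of 0 at 2 h and 0 in place of 1 at 4 h. The HoxA Myc regions past 1.5-fold higher went from 5 to 0 at 10 min, 3 to 0 at 20 min, 3 to 0 at 30 min, 7 to 0 at 2 h and 5 to 1 at 4 h, and per kb to 1 at 10 min, 4 at 2 h and 3 at 4 h; the share of tags in Myc peaks rose over the same times.

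No paired analysis was possible because each group has 1 library and the labels give no replicate numbers, and for the same reason there was no replicate to leave out. Depth differed between libraries and every list has a cutoff, so a missing peak is not a measured absence. The part of depth in missing peaks was not tested.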
